A study of Mus musculus with 18 samples.

Results

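The genes described here are 10 genes of the p53 pathway and of apoptosis, chosen by symbol. All probe sets annotated to Trp53, Cdkn1a, Mdm2, Ccng1, Bax, Bbc3, Pmaip1, Perp, Trp53inp1 and Bcl2l11 were taken, whatever their values. For 8 of the 10 genes this gave 18 probe sets, of 18193 genes and 45037 probe sets in all. Trp53 and Bax are not analysed here, so the pathway is seen through its targets and not through p53 itself. Each gene is counted by its strongest probe set, the brightest by mean log2 signal across the 18 arrays, and the others are given beside it.

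The data are 18 Affymetrix arrays of RNA from mouse embryonic stem cells, in 6 groups of 3 biological replicates. Conditional knockout cells for Foxd3, a pluripotency transcription factor, carried Foxd3fl/fl and Cre-ERT, a recombinase that tamoxifen activates to remove the floxed gene. They were treated with tamoxifen for 2 days or with DMSO, the solvent control at 0 days. The other 4 groups were CGR8 cells, a feeder-independent mouse embryonic stem cell line, transfected by lipofection and labelled Foxd3 and CA-NFATc3 (here labelled both), CA-NFATc3, Foxd3, or empty vector. NFATc3 is a transcription factor that the phosphatase calcineurin switches on, and CA-NFATc3 is the construct's name in the labels. The labels name CGR8, the same medium (GMEM with 10% serum and LIF) and the plasmid transfection for every group, also for the knockout cells, whose genotype only the series design gives. They do not say whether those cells are 1 clone, nor how long after transfection RNA was taken. Values are MAS5 signals on a linear scale, compared within a probe set and never between probe sets.

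The transcription factor p53 is stabilised by DNA damage and other stress, and induces genes that stop the cell cycle, that restrain p53 itself, or that trigger mitochondrial apoptosis. Apoptosis is set off when BH3-only proteins such as Puma, Noxa and Bim neutralise the guardians of the BCL-2 family and free its pore-forming effectors. Embryonic stem cells cycle fast with a weak G1 checkpoint, keep Cdkn1a low and are known to be primed for apoptosis, and p53 promotes their differentiation.

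Promoter sequences are shown for the 3 members in which a p53 decamer, the 10-base unit that one pair of p53 subunits binds, was found near an annotated start. They are RefSeq sequences of build GRCm38.p6, from 250 bases before to 50 after a transcript start, read 5' to 3' on the gene's strand, with the decamers in capitals. Only exact matches to RRRCWWGYYY were counted, where R is A or G, W is A or T and Y is C or T. The decamer is palindromic, so a match on one strand is a match on both. Windows were at hand for 9 annotated starts of 5 of the members.
Cdkn1a chr17:29090729-29091028 (+): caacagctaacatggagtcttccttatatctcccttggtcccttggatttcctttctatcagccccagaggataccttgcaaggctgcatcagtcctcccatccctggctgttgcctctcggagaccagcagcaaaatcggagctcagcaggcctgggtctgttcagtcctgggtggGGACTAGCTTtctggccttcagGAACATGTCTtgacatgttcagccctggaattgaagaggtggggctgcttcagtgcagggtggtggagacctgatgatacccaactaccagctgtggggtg
Mdm2 chr10:117710709-117711008 (-): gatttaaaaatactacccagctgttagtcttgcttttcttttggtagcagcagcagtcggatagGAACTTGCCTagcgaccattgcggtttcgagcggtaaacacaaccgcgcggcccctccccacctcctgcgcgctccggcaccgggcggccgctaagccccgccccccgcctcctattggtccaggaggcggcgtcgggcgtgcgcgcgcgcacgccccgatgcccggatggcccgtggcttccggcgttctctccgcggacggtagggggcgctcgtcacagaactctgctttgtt
Ccng1 chr11:40755237-40755536 (-): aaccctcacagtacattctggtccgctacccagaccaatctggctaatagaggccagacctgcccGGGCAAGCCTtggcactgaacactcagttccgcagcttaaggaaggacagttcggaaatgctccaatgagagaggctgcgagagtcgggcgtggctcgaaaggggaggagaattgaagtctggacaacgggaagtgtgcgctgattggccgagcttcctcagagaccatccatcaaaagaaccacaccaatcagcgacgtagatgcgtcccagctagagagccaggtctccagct
The Cdkn1a window held 2 decamers, with first bases at -73 and -51 relative to the start, 12 bases between them and no overlap. Directly after the second of them stands tgacatgttc, which differs from the pattern in its first base only and was not counted. The Mdm2 window held 1, from -186, and the Ccng1 window held 1, from -185. Of 32851 windows of this length, 8.4% held at least 1 decamer and 0.0731% held 2 of them at most 13 bases apart. The second Cdkn1a window (chr17:29093519-29093818), the 3 of Bbc3 and the 2 of Bcl2l11 held 0 matches, which says only that these letters are not in those 300 bases. A match is a description of the sequence and not evidence of binding.

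The labels were checked first. Foxd3 had a signal of 31.4 ± 29.6 in knockout cells with tamoxifen and of 219 ± 25.9 with DMSO (SD, n = 3 each, limma adjusted p = 0.000174). In the arrays labelled Foxd3 its signal was 237 ± 5.95, against 443 ± 55.9 with vector, which goes against the label (adjusted p = 0.00239). It was 234 ± 37.7 in the arrays labelled both, below the 451 ± 38.6 with CA-NFATc3 (-0.87, adjusted p = 0.000693) and below vector (-0.84, adjusted p = 0.00123), which goes against that label too. The sources used here do not say whether this probe set reads the plasmid's transcript, and every direction for arrays labelled Foxd3 or both holds for the label only. In knockout cells with DMSO Foxd3 was also lower than with vector (-0.92, adjusted p = 0.00103). All 6 embryonic stem cell markers (Pou5f1, Nanog, Sox2, Zfp42, Dppa5a, Tdgf1) stood above the median signal of 65.8 in every group, but not all at a like level. Nanog averaged 5550 ± 285 in knockout cells with tamoxifen, 6017 ± 138 with DMSO and 14756 ± 932 in vector arrays, and Tdgf1 13433 ± 300 with tamoxifen, 18902 ± 569 with DMSO and 19074 ± 1909 with vector. The summed signal of the 6 was 76395 to 81035 in knockout cells with tamoxifen and 87066 to 88767 with DMSO. It was 84298 to 94191 in arrays labelled both, 92578 to 96222 with CA-NFATc3, 89608 to 94241 in the arrays labelled Foxd3 and 91854 to 103417 with vector. Median signals per array were 55.2 to 80.7, and replicates of a group correlated at 0.981 to 0.988 over all probe sets.

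In Foxd3 conditional knockout cells, Cdkn1a, Mdm2, Pmaip1 and Perp were higher with tamoxifen than with DMSO and Bbc3 was lower, while Ccng1, Trp53inp1 and Bcl2l11 did not pass the test. Thus 4 of the 8 genes were higher and 1 was lower at an adjusted p under 0.05, in a comparison where 28.3% of all 24490 probe sets tested were called (14.4% higher, 13.9% lower). The median log2 difference of the 8 genes was 0.14, beside -0.01 over all probe sets tested. Differences are of log2(signal + 32), which understates the change of dim probe sets. Of all probe sets tested, 42.6% had groups that did not overlap, as 6 of the 8 genes did. Fewer cells of a type and less RNA per cell cannot be told apart in such bulk samples. Neither can tamoxifen itself, the recombinase it activates, time in treatment (2 days against 0 days) and the loss of Foxd3.

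**Figure D1:**
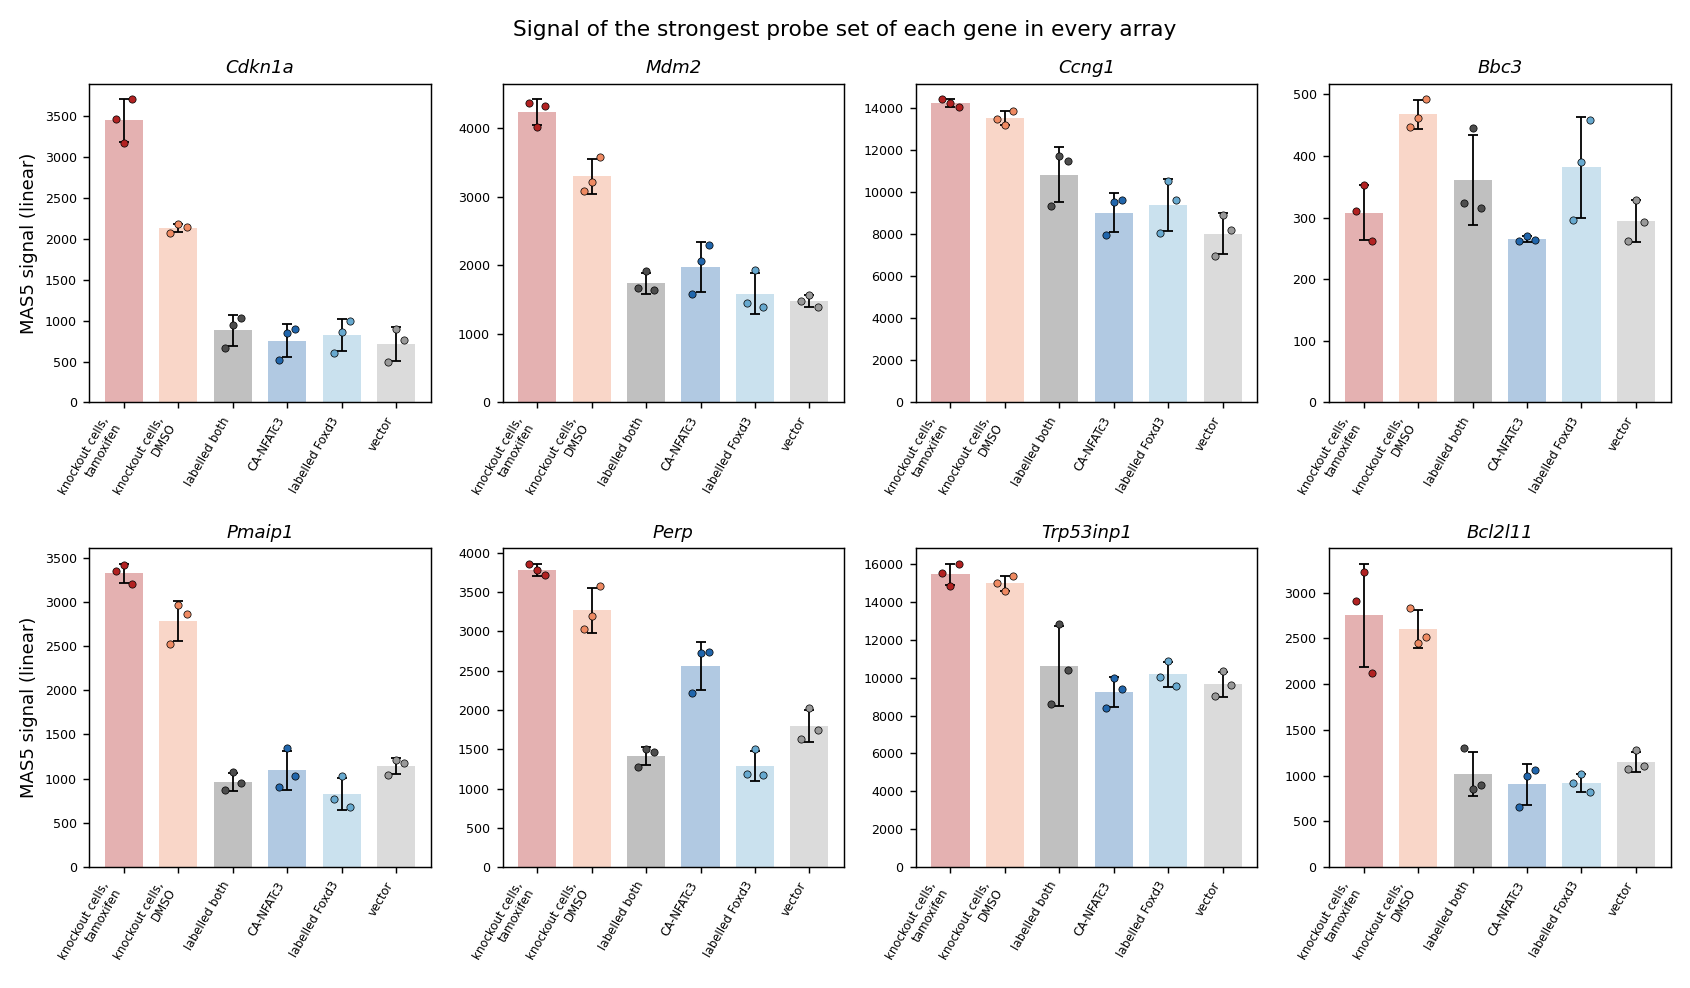
MAS5 signal (linear, from 0) of the strongest probe set of each of the 8 genes, with 1 point per array in replicate order, bars at group means and whiskers of 1 SD (n = 3). In knockout cells Cdkn1a reached 3179 to 3708 with tamoxifen and 2076 to 2182 with DMSO, above all 12 arrays of transfected cells, while Bbc3 was lower with tamoxifen than with DMSO and Perp was highest among transfected cells with CA-NFATc3.

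Cdkn1a, which encodes the cyclin-dependent kinase inhibitor p21 and is the classical arrest target of p53, had signals of 3466, 3179 and 3708 in knockout cells with tamoxifen, against 2076, 2182 and 2144 with DMSO. The 3 arrays with tamoxifen lay far above the 3 with DMSO, and replicates within each treatment were close together. The difference was 0.68 ± 0.07 (SE), a fold of 1.61 (limma adjusted p = 1.67e-05). Its other probe set read 916, 983 and 974 with tamoxifen and 444, 559 and 522 with DMSO, a difference of 0.88 ± 0.10 (adjusted p = 4.23e-05). Both probe sets of the gene therefore rose.

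Mdm2, the ubiquitin ligase that p53 induces and that in turn degrades p53, had 4371, 4015 and 4326 with tamoxifen and 3092, 3222 and 3580 with DMSO. Here too every array with tamoxifen was above every array with DMSO. The gene was 1.28-fold higher (0.36 ± 0.07, adjusted p = 0.00167), and its second probe set changed by as much (0.36 ± 0.09, adjusted p = 0.0105). The remaining Mdm2 probe set had signals of 3.95 to 54.3 over all 18 arrays and was not tested. Ccng1, cyclin G1, a p53 target that recruits a phosphatase to Mdm2, had 14435, 14241 and 14049 with tamoxifen and 13481, 13203 and 13867 with DMSO. Its groups did not overlap, but they lay close together, and the difference of 0.08 ± 0.04 did not pass (adjusted p = 0.199, 95% interval -0.01 to 0.17). Of its other probe sets, the second did not pass (-0.00, adjusted p = 0.995) and the third was higher (3631 ± 127 with tamoxifen and 3101 ± 218 with DMSO, 0.23 ± 0.06, adjusted p = 0.0196), so the 3 probe sets of this gene disagreed. After quantile normalization the strongest probe set of Ccng1 also passed (0.12, adjusted p = 0.0296).

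The BH3-only genes went different ways. Bbc3, which encodes Puma, a BH3-only protein that binds every guardian of the BCL-2 family, had 311, 352 and 262 with tamoxifen and 447, 462 and 493 with DMSO. All 3 arrays with tamoxifen were below all 3 with DMSO, and Bbc3 was the 1 member that fell (-0.56 ± 0.12, fold 0.678, adjusted p = 0.00386). Pmaip1, encoding Noxa, which binds Mcl1, had 3349, 3418 and 3204 with tamoxifen and 2528, 2960 and 2858 with DMSO. Its groups did not overlap and it was 1.20-fold higher (0.26 ± 0.07, adjusted p = 0.0143). That call was lost without tamoxifen replicate 1 (adjusted p = 0.0512) or 2 (0.0615) and with all 18 arrays in 1 fit (0.186).

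Bcl2l11, encoding Bim, a BH3-only protein mainly controlled by growth factor and FOXO signalling, had 2909, 3221 and 2124 with tamoxifen and 2834, 2445 and 2511 with DMSO. Its arrays overlapped, because replicate 3 with tamoxifen lay below all others and the remaining 2 above them. The difference was 0.06 ± 0.12 (adjusted p = 0.750, 95% interval -0.21 to 0.34). None of its 4 other probe sets passed. One of them was at -0.44 (adjusted p = 0.0841, unadjusted p = 0.0283), and the other 3 were between 0.06 and 0.16.

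Perp, a tetraspan membrane protein of desmosomes that p53 and p63 induce, had 3864, 3776 and 3713 with tamoxifen and 3030, 3194 and 3584 with DMSO. The groups were apart, though DMSO replicate 3 came near the tamoxifen arrays. The gene was 1.16-fold higher (0.21 ± 0.07, adjusted p = 0.0313), the highest adjusted p of the 5 calls. It was lost without DMSO replicate 1 (0.0708) or 2 (0.0964), without tamoxifen replicate 1 (0.103), 2 (0.0828) or 3 (0.0644), with no filter on dim probe sets (0.0574) and with all 18 arrays in 1 fit (0.167). Trp53inp1, a nuclear and autophagy protein that promotes phosphorylation of p53, had 15506, 14864 and 15999 with tamoxifen and 14991, 14581 and 15365 with DMSO. Its arrays overlapped and it did not pass (0.04 ± 0.04, adjusted p = 0.492), except after quantile normalization (0.11, adjusted p = 0.0223). Its second probe set was at -0.12 (adjusted p = 0.523).

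Markers of another cell type moved with this comparison. The summed signal of 6 fibroblast markers (Col1a1, Col1a2, Col3a1, Thy1, Pdgfrb, Dcn) was 12641 to 14350 with tamoxifen and 2317 to 2811 with DMSO, and all 6 reached the median signal in both groups. For 4 primitive endoderm markers (Gata4, Gata6, Sox17, Dab2) the sum was 869 to 956 with tamoxifen and 489 to 662 with DMSO, with 3 of 4 at the median signal in both. Of these, Dab2 averaged 591 with tamoxifen and 277 with DMSO. Gata4 (49.0 and 54.2), Gata6 (157 and 143) and Sox17 (117 and 100) had arrays that overlapped. The lowest deposited value was 0.061, so no marker was at 0. All 6 embryonic stem cell markers had lower means with tamoxifen, Nanog and Tdgf1 as given above. Sox2 averaged 11159 with tamoxifen and 12586 with DMSO, and Pou5f1 7602 and 8707. The arrays of Zfp42 and Dppa5a overlapped. The part of any of these in the changes of Cdkn1a, Mdm2, Pmaip1, Perp and Bbc3 was not tested.

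Knockout cells with DMSO, without tamoxifen, had higher signals of these genes than CGR8 cells with vector. All 8 genes were higher, where 48.4% of the 26305 probe sets tested were called, 29.8% higher and 18.6% lower. The median difference of the 8 genes was 0.99, beside 0.13 over all probe sets. After quantile normalization the median over all probe sets was -0.02 and 47.3% of the calls were higher, in place of 61.6%, and the 8 genes were still called higher. Genotype, the lower Foxd3 signal, DMSO, any difference in transfection and any batch cannot be told apart in this comparison. The fibroblast marker sum was 2317 to 2811 in knockout cells with DMSO and 284 to 364 with vector (6 and 2 of 6 markers at the median signal). Nanog averaged 6017 in knockout cells with DMSO and 14756 with vector, Sox2 12586 and 16822, and Pou5f1 8707 and 10417. Dppa5a went the other way, at 30853 and 27034, and the arrays of Zfp42 and Tdgf1 overlapped. The part of the fibroblast or stem cell markers in the result was not tested.

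Cdkn1a stood furthest apart, at 2076, 2182 and 2144 in knockout cells with DMSO against 492, 894 and 763 in vector arrays. The 3 knockout arrays agreed closely while the vector arrays were spread, with replicate 1 lowest. The difference was 1.57 ± 0.21, a fold of 2.97 (limma adjusted p = 2.90e-06). Noxa's gene followed, with Pmaip1 at 2528, 2960 and 2858 against 1041, 1216 and 1180 (1.26 ± 0.13, fold 2.39, adjusted p = 1.58e-07). Bcl2l11, at 2834, 2445 and 2511 against 1071, 1277 and 1105, was 2.22-fold higher (1.15 ± 0.17, adjusted p = 1.14e-05), and Mdm2, at 3092, 3222 and 3580 against 1486, 1563 and 1395, was 2.20-fold higher (1.14 ± 0.12, adjusted p = 1.56e-07). In each of these 4 genes the lowest knockout array was above the highest vector array, which held for all 8 genes, while 56.0% of all probe sets had groups that did not overlap.

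Perp was 1.80-fold higher (0.85 ± 0.11, adjusted p = 1.36e-06), with 3030, 3194 and 3584 in knockout cells with DMSO and 1627, 2028 and 1747 with vector. Ccng1 was 1.69-fold higher (0.76 ± 0.10, adjusted p = 3.05e-06) and Trp53inp1 1.55-fold higher (0.63 ± 0.10, adjusted p = 2.08e-05). The smallest difference was that of Bbc3, at 447, 462 and 493 against 261, 329 and 293 (0.62 ± 0.15, fold 1.54, adjusted p = 0.00163). The 16 member probe sets that also passed the filter in transfected cells were all called higher, from 0.62 for Bbc3 to 1.57 for the strongest Cdkn1a probe set. One more Bcl2l11 probe set (159 in knockout cells with DMSO, 39.8 with vector) reached the median signal in the 6 knockout arrays alone, so that the filter favoured its call. Probe sets of a gene differed in size, and the second probe set of Trp53inp1 (349 ± 25.9 against 98.2 ± 18.9) differed by 1.56 ± 0.19, against 0.63 for the gene's strongest one.

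**Figure D2:**
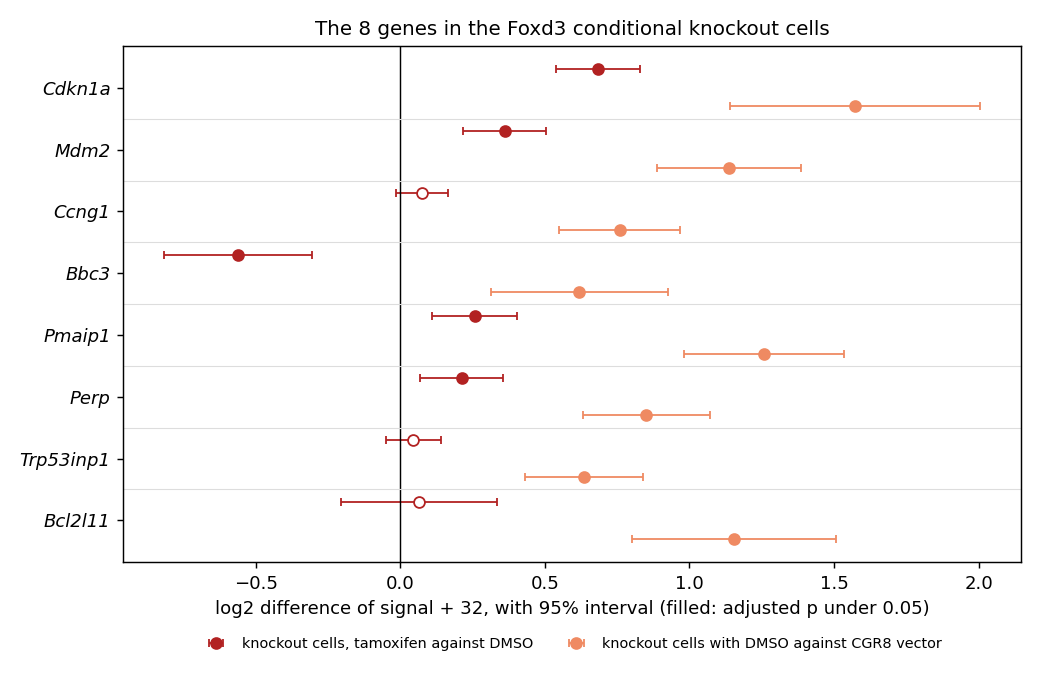
Log2 difference of signal + 32 for the strongest probe set of each gene in the knockout cells, with its 95% interval; filled points had a limma adjusted p under 0.05. Tamoxifen against DMSO ran from -0.56 for Bbc3 to 0.68 for Cdkn1a, and DMSO against CGR8 vector was above 0 for all 8 genes, from 0.62 to 1.57.

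In the order of group means, the strongest probe sets of Cdkn1a, Mdm2, Ccng1, Pmaip1 and Perp were highest in knockout cells with tamoxifen. Knockout cells with DMSO came next, then every group of transfected cells, and neighbours at these steps did not overlap. The difference of Ccng1 with tamoxifen did not pass, as given above, and its second probe set overlapped between the knockout groups. Bbc3 had another order. It was highest in knockout cells with DMSO, at 467 ± 23.3, while its mean with tamoxifen (308 ± 45.3) lay among those of the transfected cells, at 361 ± 72.7 in arrays labelled both, 265 ± 4.24 with CA-NFATc3, 382 ± 81.9 in arrays labelled Foxd3 and 294 ± 33.7 with vector. Each of its groups overlapped the next in that order. Among transfected cells, Cdkn1a means were 883 ± 188 in arrays labelled both, 755 ± 205 with CA-NFATc3, 825 ± 201 in arrays labelled Foxd3 and 716 ± 205 with vector, and all of them overlapped.

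With CA-NFATc3, Perp was the 1 member of 8 that passed against vector, where 3.57% of the 23595 probe sets tested were called (2.84% higher, 0.729% lower). It had 2213, 2725 and 2742 with CA-NFATc3 and 1627, 2028 and 1747 with vector. The lowest array with CA-NFATc3 was above the highest with vector, though not by much, and 17.4% of all probe sets had groups that did not overlap. The difference was 0.50 ± 0.12, a fold of 1.41 (limma adjusted p = 0.0231). The call was lost without vector replicate 1 (0.108) or 3 (0.0974) and without CA-NFATc3 replicate 2 (0.0969) or 3 (0.145).

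Markers of other cell types moved here as well. The 4 primitive endoderm markers summed to 418 to 570 with CA-NFATc3 and to 164 to 259 with vector, with 4 and 1 of 4 at the median signal. The 6 fibroblast markers summed to 541 to 716 with CA-NFATc3 and to 284 to 364 with vector, with 3 and 2 of 6 at that level. Of these, Col3a1 averaged 221 with CA-NFATc3 and 18.1 with vector. The arrays of Col1a1 (14.4 and 14.0), Dcn (3.87 and 9.85), Col1a2 and Thy1 overlapped. The part of either marker set in the change of Perp was not tested. The calcineurin target Rcan1 was higher with CA-NFATc3 (1.59 ± 0.11, adjusted p = 3.33e-07). Nfatc3 itself did not pass (0.13 ± 0.07, adjusted p = 0.452), and whether its probe set reads the plasmid's transcript is not given.

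The other 7 genes did not pass with CA-NFATc3, and the median of the 8 was 0.01, beside -0.01 over all probe sets. Mdm2 had 1581, 2061 and 2300 with CA-NFATc3 and 1486, 1563 and 1395 with vector. Its replicate 1 was barely above the vector arrays and the other 2 well above them, for a difference of 0.40 ± 0.13 (adjusted p = 0.154). It passed without CA-NFATc3 replicate 1 (0.0246), with array weights (0.045) and with the replicate number as a block (0.0481). Bcl2l11 was at -0.37 ± 0.17 (adjusted p = 0.374), with 653, 991 and 1064 with CA-NFATc3 just under 1071, 1277 and 1105 with vector. For Cdkn1a the 95% interval of the difference was -0.43 to 0.58, for Pmaip1 -0.40 to 0.24 and for Bbc3 -0.46 to 0.20. With 3 arrays a group, changes of these genes within these bounds are not excluded.

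In the arrays labelled both, where Foxd3 signal goes against the label as given above, Perp was lower than with CA-NFATc3, the 1 of 8 strongest probe sets called in a comparison where 3.92% of probe sets were called (1.67% higher, 2.25% lower). It had 1279, 1500 and 1462 in arrays labelled both, against 2213, 2725 and 2742 with CA-NFATc3. Every array labelled both was far below every array labelled CA-NFATc3, by -0.84 ± 0.12, a fold of 0.559 (limma adjusted p = 0.000465). This call held when each replicate was left out in turn, with adjusted p up to 0.00561. The calcineurin target Rcan1 was lower as well (-1.32 ± 0.11, adjusted p = 3.81e-06), and in arrays labelled both it did not pass against vector (0.26 ± 0.11, adjusted p = 0.280). Primitive endoderm markers summed to 280 to 310 in arrays labelled both and 418 to 570 with CA-NFATc3. Fibroblast markers summed to 822 to 913 in arrays labelled both and 541 to 716 with CA-NFATc3, but not all went the same way. Col1a2 averaged 319 in arrays labelled both and 51.6 with CA-NFATc3, while Col3a1 had 123 and 221 and Pdgfrb 182 and 202. The part of either marker set in the change of Perp was not tested.

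The second probe set of Trp53inp1 was higher in arrays labelled both, with 121, 176 and 150 against 42.1, 78.3 and 66.1 (0.95 ± 0.22, adjusted p = 0.0195), whereas the gene's strongest probe set was at 0.18 ± 0.11 (adjusted p = 0.521), so its probe sets disagreed. Bbc3, with 323, 445 and 315 against 262, 270 and 264, had groups that did not overlap (as for 18.1% of all probe sets) but did not pass (0.39 ± 0.16, adjusted p = 0.238). The median of the 8 genes was 0.18, beside 0.01 over all probe sets.

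In arrays labelled Foxd3, 0 of 8 genes passed limma's test against vector (2 at an unadjusted p under 0.05), where 1.71% of probe sets were called (1.17% higher, 0.534% lower). Perp came closest, with 1183, 1506 and 1169 in arrays labelled Foxd3 against 1627, 2028 and 1747 with vector. All 3 arrays were below the vector arrays, where 17.3% of all probe sets had groups that did not overlap, and the difference of -0.48 ± 0.12 missed the threshold narrowly (adjusted p = 0.0511). It passed under other settings, such as 1 probe set per gene (0.0357) and all 18 arrays in 1 fit (0.0150), and without vector replicate 1 (0.0491) or replicate 2 labelled Foxd3 (0.0193). With the replicate number, whose meaning the labels do not give, as a block, its adjusted p was 0.00178. Pmaip1 had 766, 1026 and 677 in arrays labelled Foxd3, against 1041, 1216 and 1180 with vector, where again no arrays overlapped (-0.48 ± 0.15, adjusted p = 0.153). It passed without replicate 2 labelled Foxd3 (0.0396) and with the replicate number as a block (0.0104). For Cdkn1a the interval was -0.30 to 0.71 (0.21 ± 0.24, adjusted p = 0.818), and for Mdm2 -0.20 to 0.37.

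Against vector, the arrays labelled both gave 0 of 8 calls by limma (2 at an unadjusted p under 0.05), where 2.84% of probe sets were called (2.16% higher, 0.678% lower). Ccng1 had 9329, 11705 and 11456 in arrays labelled both and 6964, 8901 and 8186 with vector. These groups did not overlap, as for 19.7% of all probe sets, and the difference was 0.43 ± 0.11 (adjusted p = 0.0580). Its other probe sets were at 0.06 (adjusted p = 0.785) and 0.39 (adjusted p = 0.163). The strongest one passed without vector replicate 2 (0.0481) or replicate 1 labelled both (0.0288), with 1 probe set per gene (0.0412) and with all 18 arrays in 1 fit (0.0155). It also passed with array weights (0.0360) and with the replicate number as a block (0.000135). Perp was at -0.34 ± 0.12 (adjusted p = 0.159), and it passed with the replicate number as a block (0.0135). Against the arrays labelled Foxd3, those labelled both gave 0 calls of 8 (0 at an unadjusted p under 0.05), where 0.225% of probe sets were called. The interaction of the plasmids also gave 0 (1 at an unadjusted p under 0.05, Perp at -0.36 ± 0.17, adjusted p = 0.679), where 0.424% were called (0.0424% higher, 0.381% lower). The comparisons against vector share the same 3 vector arrays, so their differences are not independent.

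**Figure D3:**
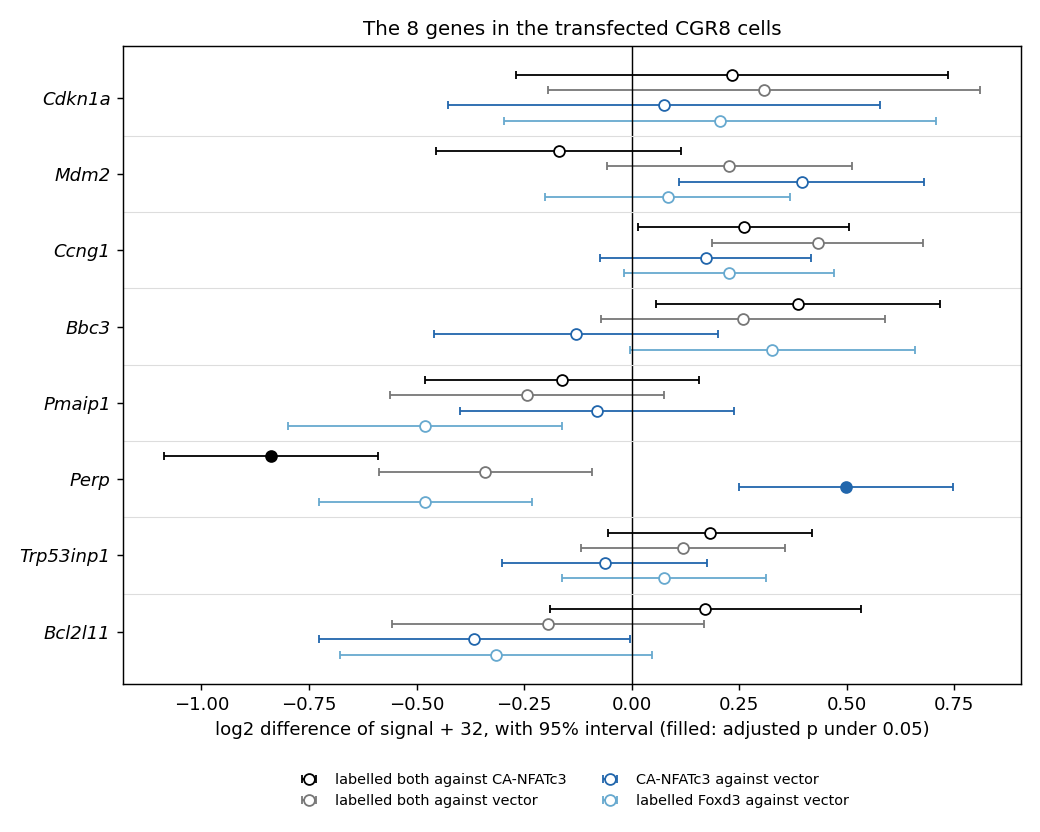
Log2 difference of signal + 32 for the strongest probe set of each gene in transfected CGR8 cells, with its 95% interval; filled points had a limma adjusted p under 0.05. The filled points are those of Perp, at -0.84 in arrays labelled both against CA-NFATc3 and at 0.50 with CA-NFATc3 against vector.

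Perp was thus the member that varied most clearly among transfected cells. In the order of group means CA-NFATc3 came first (2560 ± 301), then vector (1801 ± 205), arrays labelled both (1414 ± 118) and arrays labelled Foxd3 (1286 ± 191). Neighbours in that order were apart except the last pair, whose arrays overlapped. Cdkn1a and Ccng1 had another feature in common, since replicate 1 was the lowest array in each of the 4 transfected groups. That held for 2 of 8 members by their strongest probe set and for 5.43% of the 23595 probe sets tested. In the other Cdkn1a probe set, replicate 1 was lowest in 2 of the 4 groups.

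The genes whose signals followed Perp most closely were sought over all 18 arrays, after the mean of each cell set (12 transfected, 6 knockout) was removed from the log2 values. They were Lnx1, a ubiquitin ligase (r = 0.944), Kdelr3, a KDEL receptor that returns proteins to the endoplasmic reticulum (r = 0.933), and Sdc4, the heparan sulphate proteoglycan syndecan-4 (r = 0.924), out of 19656 probe sets. For Cdkn1a they were Gask1b (r = 0.910), Ginm1 (r = 0.894) and Lamp2, a lysosomal membrane protein (r = 0.882). These correlations describe arrays that share group, scaling and replicate number, and they carry no test. Lnx1 averaged 1024 ± 89.2 with CA-NFATc3 and 644 with vector (SD, n = 3), and Sdc4 averaged 1209 with CA-NFATc3 and 620 with vector. Within the 6 knockout arrays r with Perp was 0.878 for Lnx1, 0.872 for Sdc4 and 0.70 for Kdelr3. Between the cell sets, whose means were removed, Lnx1 and Kdelr3 did not follow Perp. In knockout cells with DMSO Lnx1 averaged 487 and Kdelr3 372, below the 644 and 1012 with vector, while Sdc4 averaged 2138.

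**Figure D4:**
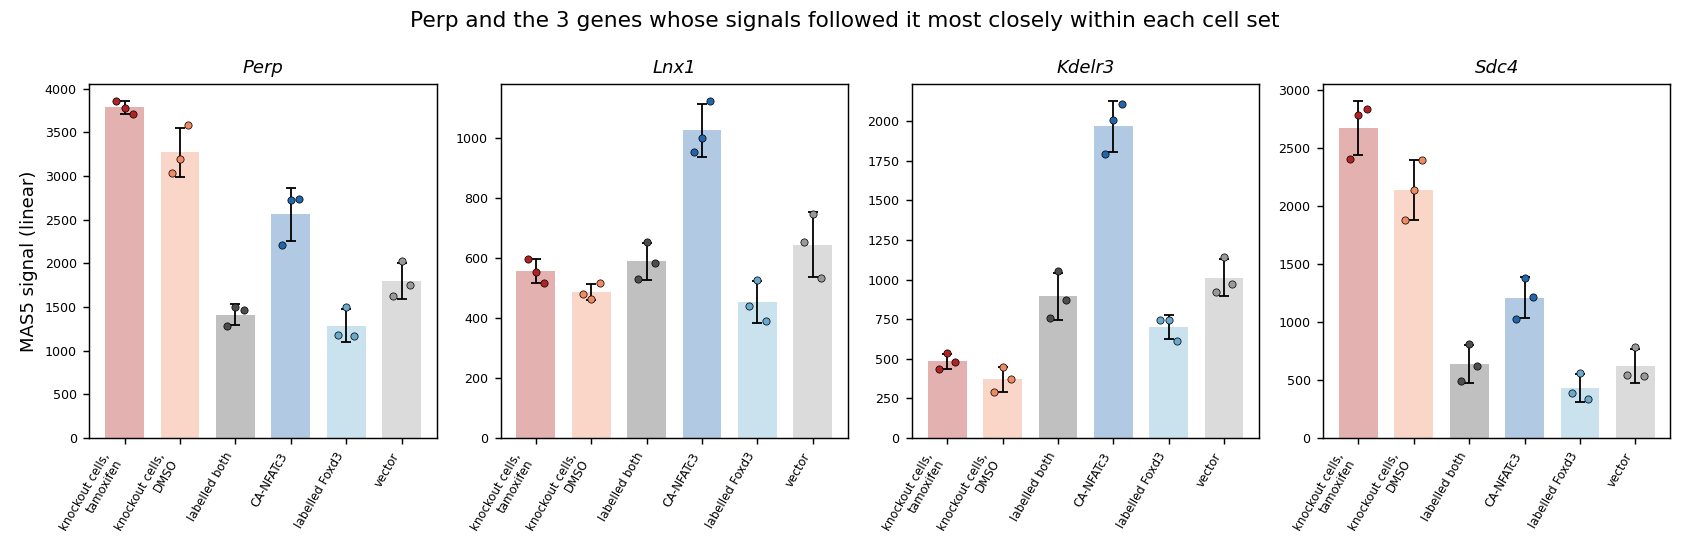
MAS5 signal (linear, from 0) of Perp and of the 3 genes most correlated with it within the cell sets, with points per array, bars at group means and whiskers of 1 SD (n = 3). Among the transfected cells all 4 genes were highest with CA-NFATc3, where Perp averaged 2560 and Lnx1 1024.

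Other genes of the pathway were taken from 6 lists, of which 75 of 81 genes had a probe set of their own. With tamoxifen against DMSO, 29 of the 74 tested were called, 16 higher and 13 lower, beside the 28.3% of all probe sets. Among 19 p53 regulators, 12 did not pass, 5 were higher and 2 were lower (median -0.06). Cdkn2a, which encodes p19Arf among other products, averaged 667 with tamoxifen and 351 with DMSO (0.88 ± 0.13, adjusted p = 0.000374). The protein p19Arf holds Mdm2 away from p53, and which transcript of the gene the probe set reads was not examined. The p53 kinase Hipk2 was higher by 0.58 ± 0.11, and the checkpoint kinase Chek1 was lower (-0.45 ± 0.06, adjusted p = 0.000333). The 18 further targets of arrest, repair and metabolism gave 4 higher and 2 lower (12 not passing, median -0.03). Sfn, the 14-3-3 sigma protein (0.81 ± 0.14), and Gadd45a, a DNA damage-inducible arrest protein (0.46 ± 0.06), were higher. Sesn1, sestrin 1, was lower (-0.82 ± 0.17, adjusted p = 0.00389). The call of Sfn was lost with all 18 arrays in 1 fit (0.0567).

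Among the BCL-2 family effectors and BH3-only genes beyond the members, 4 of 8 were lower with tamoxifen and 1 was higher (3 not passing, median -0.33). Bmf, a BH3-only protein linked to the cytoskeleton, averaged 353 with tamoxifen and 702 with DMSO (-0.92 ± 0.10, adjusted p = 5.40e-05). Without 1 replicate the count of this list was 2 to 3 lower and 0 to 1 higher, over the 6 fits. Bnip3, a mitochondrial protein induced by hypoxia, fell by 0.70 ± 0.07 (adjusted p = 3.27e-05), and Hrk by 0.64 ± 0.17 (adjusted p = 0.0166). Hrk was dim, at 94.0 with tamoxifen and 165 with DMSO, and lost its call without tamoxifen replicate 3 (0.065) or DMSO replicate 3 (0.0675). Of 5 guardians 1 was higher, Mcl1 (0.21 ± 0.05, adjusted p = 0.0106), and 4 did not pass. That call was lost without tamoxifen replicate 1 (0.0526) or 2 (0.0512) and with all 18 arrays in 1 fit (0.0882).

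In the list of caspases, apoptosome and death receptors 4 of 19 were higher with tamoxifen and 3 were lower (12 not passing, median -0.08). The largest differences among these calls were those of Casp8, Cflar and Fas, all higher, and the other called genes are not named. The initiator caspase Casp8 averaged 402 with tamoxifen and 149 with DMSO (1.27 ± 0.13, adjusted p = 2.88e-05), its inhibitor-like relative Cflar 529 and 209 (1.22 ± 0.11, adjusted p = 1.06e-05), and the death receptor Fas 239 and 98.0 (1.12 ± 0.23, adjusted p = 0.00390). Of 5 inhibitors of apoptosis, Birc3 was higher (1.05 ± 0.13, adjusted p = 9.96e-05), Birc2 (-0.39 ± 0.08) and Birc5, survivin (-0.21 ± 0.05), were lower, and 2 did not pass. The fibroblast markers given above also changed in this comparison, and their part in the calls of these lists was not tested.

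**Figure D5:**
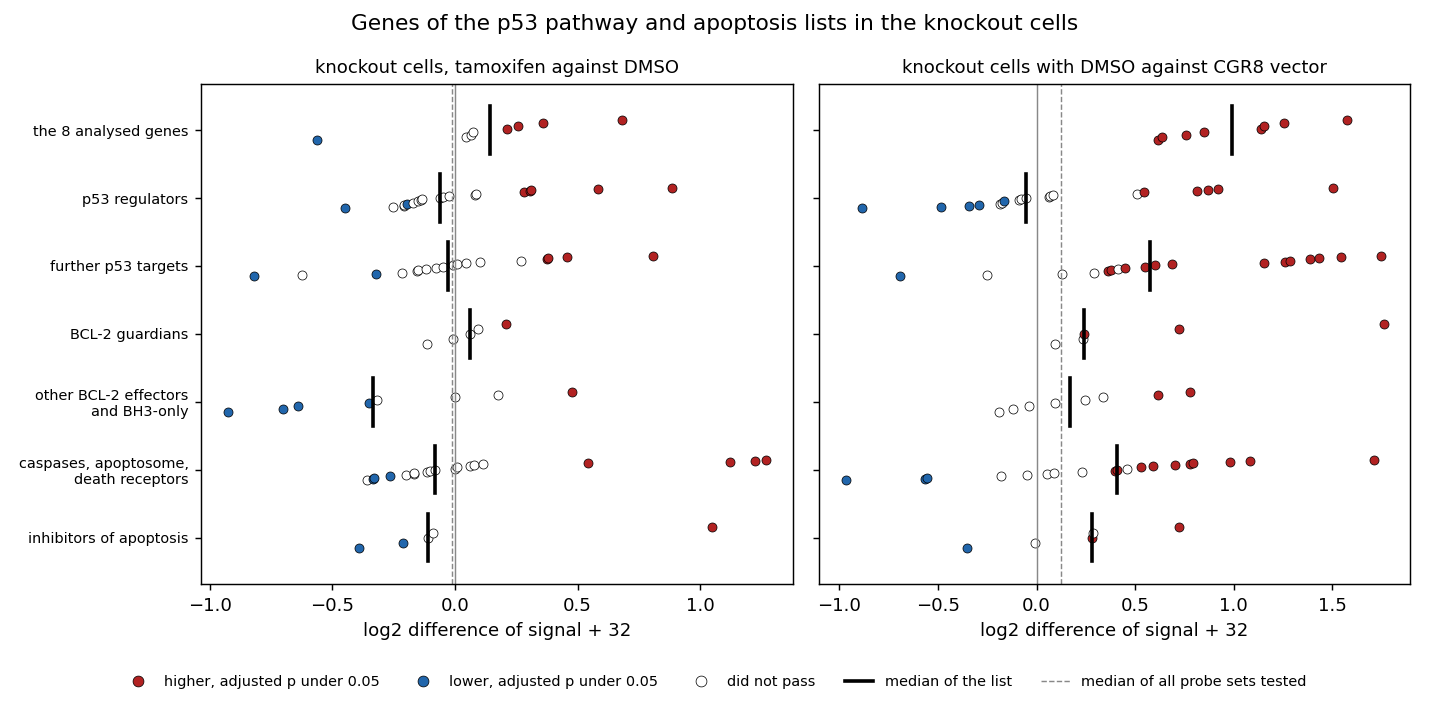
Log2 difference of signal + 32 of each gene of the lists, by its strongest probe set, for knockout cells with tamoxifen against DMSO (left) and with DMSO against CGR8 vector (right); colour marks limma calls, black bars list medians and the dashed line the median of all probe sets tested. The list of BCL-2 effectors and BH3-only genes had a median of -0.33 on the left, and further p53 targets one of 0.57 on the right.

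Between knockout cells with DMSO and CGR8 vector, 45 of 74 list genes were called, 35 higher and 10 lower, beside 48.4% of all probe sets. Of the further p53 targets 13 of 18 were higher and 1 was lower (4 not passing, median 0.57). Btg2, an antiproliferative gene (3429 and 996, 1.75 ± 0.15, adjusted p = 1.04e-08), and Polk, a translesion DNA polymerase (1398 and 466, 1.55 ± 0.17, adjusted p = 2.05e-07), led them. Among caspases, apoptosome and death receptors 10 of 19 were higher and 3 were lower (6 not passing, median 0.41). After quantile normalization 8 of these were higher and 4 lower (median 0.22), and of the further p53 targets 12 were higher and 2 lower (median 0.48). Apaf1, the core of the apoptosome, averaged 2315 in knockout cells with DMSO and 686 with vector (1.71 ± 0.10, adjusted p = 3.03e-11). Regulators were evenly divided, at 5 higher and 5 lower of 19 (9 not passing, median -0.06). Among them Cdkn2a was higher, averaging 351 in knockout cells with DMSO and 104 with vector (adjusted p = 9.13e-05), and Sirt1, a deacetylase of p53, was lower (-0.88 ± 0.14, adjusted p = 2.53e-05).

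Fas, one of those 10 caspase and death receptor genes, reached the median signal in no transfected array, so that the filter favoured its call. In the same comparison 3 of 5 guardians were higher and 2 did not pass, 2 of 8 effectors and BH3-only genes were higher and 6 did not pass, and among 5 inhibitors 2 were higher and 1 was lower (2 not passing). After quantile normalization 1 of 8 effectors and BH3-only genes was higher, with a median of 0.003 in place of 0.17. The median of the inhibitors was then 0.05 in place of 0.28, and that of the guardians 0.45 (4 tested) in place of 0.24. Bcl2 averaged 164 in knockout cells with DMSO and 26.3 with vector, under the median signal, which it reached in 4 of the 12 transfected arrays. Its difference of 1.76 ± 0.26 (adjusted p = 9.58e-06) ran from 0.91 to 2.74 over the settings tried. Bcl2l1, encoding Bcl-xL, was higher by 0.72 ± 0.11 (adjusted p = 1.51e-05). The fibroblast marker sums also differed in this comparison, as given above, and their part in the calls of these lists was not tested.

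Few list genes were called among transfected cells, and few probe sets were called in all (the shares given above for each comparison). In arrays labelled Foxd3 1 of 72 was higher than with vector (1.71% of all probe sets called), the p53-binding protein gene Trp53bp1 (5574 and 4252, 0.39 ± 0.07, adjusted p = 0.00806, and 0.0548 without vector replicate 3). With CA-NFATc3 2 of 72 were higher (3.57% of all probe sets called), Bcl2l1 (0.63 ± 0.12, adjusted p = 0.00424) and Btg2 (0.62 ± 0.15, adjusted p = 0.0232). Bcl2l1 kept its call without each replicate in turn, and Btg2 lost it without vector replicate 1 (0.101) or 3 (0.133) or CA-NFATc3 replicate 2 (0.0982) or 3 (0.159). In arrays labelled both against CA-NFATc3, 2 of 72 were called (3.92% of all probe sets), Bmf (732 and 419, 0.78 ± 0.15, adjusted p = 0.00689) and Sesn2 (0.50 ± 0.12, adjusted p = 0.0318), both higher. The call of Sesn2 was lost in 5 of the 6 fits that left out 1 replicate, and that of Bmf in none of them.

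Against vector, the arrays labelled both gave 3 calls of 72, beside 2.84% of all probe sets. Trp53bp1 (0.36 ± 0.07, adjusted p = 0.00947) and Apaf1 (0.53 ± 0.11, adjusted p = 0.0172) were higher, and Tigar, a p53 target that lowers glycolytic flux, was lower (-0.52 ± 0.12, adjusted p = 0.0255). The calls of Apaf1 and Tigar were each lost when vector replicate 1 or 3, or replicate 2 or 3 labelled both, was left out (adjusted p 0.0604 to 0.118), and Trp53bp1 without vector replicate 3 (0.0618). Fibroblast markers summed to 822 to 913 in arrays labelled both and to 284 to 364 with vector, and primitive endoderm markers to 280 to 310 in arrays labelled both and to 164 to 259 with vector, and their part was not tested. Against the arrays labelled Foxd3, 0 of 72 passed limma's test (5 at an unadjusted p under 0.05), beside 0.225% of all probe sets. In the interaction 0 passed limma's test (11 at an unadjusted p under 0.05), beside 0.424% of all probe sets.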

How the data were processed

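Expression was measured in 18 arrays, 1 labelled sample each, in 6 groups of 3 biological replicates. The deposited values are linear signal intensities that the authors computed with MAS5, per the submitters' processing notes, and every array has the same trimmed mean of 500, so a shift of all genes cannot be seen. The number of arrays limits the precision. The labels do not say what the replicates had in common, so p-values measure the spread between these samples.

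From the 45101 probe sets 64 controls were left out, and 34945 had 1 gene symbol, 932 several and 9160 none. Log2(signal + 32) was tested with limma 3.58.1 in R 4.3.3 (lmFit and eBayes with a trend, two-sided, Benjamini-Hochberg adjustment over all probe sets tested, called under 0.05). Probe sets had to reach the median of all values, 65.8, in 3 arrays of the fit. That left 16 of the 18 member probe sets in the fit of the 12 transfected arrays, 17 in that of the 6 knockout arrays, and 17 in that of all 18, which served knockout cells with DMSO against vector. From each list and comparison up to 3 called genes with the largest difference were named, and for likeness the 3 genes with the highest Pearson correlation. Alternatives were the offset, quantile normalization, the filter, 1 probe set per gene, the arrays in the fit, array weights, a replicate block and leaving out each replicate. The members and lists were chosen with earlier results of these data known. The code was tested on simulated data. Figures were drawn with matplotlib 3.10.9.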

Additional observations from a re-analysis of the deposited data

How the results depend on the processing

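Of the 8 genes, 8 were higher in knockout cells with DMSO than with vector under every alternative run. With tamoxifen against DMSO 5 were called, 7 after quantile normalization, 3 with all 18 arrays in 1 fit and 3 to 5 without 1 replicate. Cdkn1a, Mdm2 and Bbc3 kept their calls in that comparison, and Perp in arrays labelled both against CA-NFATc3, under every alternative run. In arrays labelled Foxd3 against vector the count was 0. It was 1 with the filter on the mean signal, with 1 probe set per gene, with all 18 arrays and with array weights, and 0 to 2 without 1 replicate. With CA-NFATc3 against vector it was 1, 2 with array weights and 0 to 2 without 1 replicate. In arrays labelled both against vector it was 0, 1 with 1 probe set per gene, all 18 arrays or array weights, and 0 to 1 without 1 replicate. The cause of these changes was not tested. Over the whole array, 1 probe set per gene gave 4165 calls in place of 6932 with tamoxifen and 6968 in place of 12740 with DMSO against vector, as fewer features were tested. All 18 arrays in 1 fit gave 629 in place of 403 for arrays labelled Foxd3, 1031 in place of 669 for those labelled both, each against vector, and 178 in place of 100 for the interaction. Without 1 replicate these counts were 195 to 345 for arrays labelled Foxd3, 436 to 764 for CA-NFATc3 (842 with all) and 363 to 514 for arrays labelled both, each against vector. They were 461 to 721 for arrays labelled both against CA-NFATc3 (926 with all), 23 to 38 against arrays labelled Foxd3 (53 with all) and 52 to 97 for the interaction.

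Replicate numbers are shared between groups, but nothing says what a number stands for. Same-numbered transfected arrays of different groups correlated at 0.0716 to 0.263 in their deviations from the group means, and differently numbered ones at -0.245 to 0.0345. Of these arrays 12 of 12 correlated best with their own number, a hint from the data and not from the design. The main fits did not use the number. Same-numbered knockout arrays correlated at -0.026 to 0.0272. With the replicate number as a block, 3 of the 8 genes were called in arrays labelled Foxd3 against vector (Perp, Pmaip1 and Ccng1 gained the call). The count was 2 with CA-NFATc3 (Mdm2 gained), 2 in arrays labelled both (Ccng1, adjusted p = 0.000135, and Perp, 0.0135, gained) and 2 in these against CA-NFATc3 (Ccng1 gained). Over the whole array the replicate block gave 966, 1397, 1450 and 1619 calls in these comparisons, 119 for arrays labelled both against Foxd3 and 228 for the interaction. Of the 72 list genes it called 6 higher and 3 lower with CA-NFATc3 against vector, 4 higher and 3 lower in arrays labelled both against CA-NFATc3, 4 higher and 1 lower in these against vector, 1 higher and 2 lower in arrays labelled Foxd3 against vector, and 1 higher in the interaction. With the replicate block, chosen after seeing the data for knockout cells with DMSO against vector, 8 of 8 genes were still higher there.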
